A study of Mus musculus with 64 samples.

Results

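The genes described here are 9 mouse genes for hydroxysteroid dehydrogenases and steroid reductases: Hsd3b2, Hsd3b3, Hsd3b5, Hsd11b1, Hsd17b2, Hsd17b6, Hsd17b13, Srd5a1 and Akr1c6. They were taken by symbol, and all 9 were among the 23338 genes of the count files. The 64 libraries came from C57BL/6 mice, which the methods give as C57BL/6 J, and were 12 single 8-cell embryos taken at 2.5 dpc (6 male, 6 female), 4 lines of 2i ES cells, each derived from an 8-cell embryo (2 male, 2 female), 24 fetal livers from late gestation (12 male, 12 female) and 24 adult livers from mice aged 15 to 20 weeks (12 male, 12 female). Apart from the ES culture medium, which held LIF and the kinase inhibitors of the 2i method, no group carried a treatment or an engineered allele. Embryos were amplified by a single-cell protocol and the other samples by a stranded total RNA kit, and in embryos the stage cannot be told apart from this protocol. Each liver library stood for 1 animal, whose litter the labels do not give, and the ES lines gave 1 library each.

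Hydroxysteroid dehydrogenases move a steroid between its hydroxyl and its keto form, and steroid reductases saturate a double bond of the steroid ring. In this way an active hormone is made from an inactive one, or the reverse, at the tissue itself. The liver is the main site at which circulating androgens, oestrogens, progestins and glucocorticoids are reduced, oxidised and cleared, and rodent liver is known for steroid metabolism that differs between the sexes. The 3 Hsd3b genes described here lie in one cluster of near copies. Hsd3b5 is known as a reductase of keto steroids in the liver of male mice, while Hsd3b2 and Hsd3b3 are isoforms with dehydrogenase and isomerase activity.

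By GENCODE M21 on GRCm38, which the submitters' notes call mm10, Hsd3b5 lay at chr3:98618634-98630252, Hsd3b2 at chr3:98709255-98724543 and Hsd3b3 at chr3:98741523-98763127, all on the minus strand. Hsd3b6 and Hsd3b1, which are no members of the set, followed in the same cluster, with 42.4 kb between Hsd3b3 and Hsd3b6 and 37.8 kb between Hsd3b6 and Hsd3b1. Hsd11b1 lay at chr1:193221634-193264075 on the minus strand, Hsd17b2 at chr8:117701904-117759027 on the plus strand and Hsd17b6 at chr10:127990936-128007611 on the minus strand. Hsd17b13 lay at chr5:103955440-103977410 on the minus strand, 12.4 kb from Hsd17b11. Srd5a1 was found at chr13:69573449-69611442 on the minus strand. Akr1c6 sat in a cluster of aldo-keto reductases at chr13:4434306-4457877 on the plus strand, 29.0 kb from Akr1c20. Reads were counted over the exons of each gene.

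The 250 bases before the first transcribed base of 4 cluster genes are shown, since the results turn on which of these near copies was read in which liver. They come from RefSeq on GRCm38.p6 and are written 5′ to 3′ along the gene. Hsd3b5 (chr3:98645535-98645784), Hsd3b3 (chr3:98763129-98763378) and Hsd3b2 (chr3:98724544-98724793) are the members, and Hsd3b1 (chr3:98859795-98860044) is the copy that led in fetal liver. Capitals in Hsd3b5 and Hsd3b3 mark the longest run of bases that both windows share, and capitals in Hsd3b1 mark a match to the letters TTCNNNGAA of a STAT5 site.
Hsd3b5: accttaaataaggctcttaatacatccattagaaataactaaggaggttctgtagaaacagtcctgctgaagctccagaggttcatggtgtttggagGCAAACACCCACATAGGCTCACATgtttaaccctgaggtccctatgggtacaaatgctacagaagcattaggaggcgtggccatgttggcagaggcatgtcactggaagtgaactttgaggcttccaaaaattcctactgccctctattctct
Hsd3b3: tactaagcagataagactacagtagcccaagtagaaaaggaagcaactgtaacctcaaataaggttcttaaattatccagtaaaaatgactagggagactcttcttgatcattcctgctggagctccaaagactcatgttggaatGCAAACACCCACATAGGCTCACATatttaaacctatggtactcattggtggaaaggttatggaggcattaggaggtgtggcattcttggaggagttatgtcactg
Hsd3b2: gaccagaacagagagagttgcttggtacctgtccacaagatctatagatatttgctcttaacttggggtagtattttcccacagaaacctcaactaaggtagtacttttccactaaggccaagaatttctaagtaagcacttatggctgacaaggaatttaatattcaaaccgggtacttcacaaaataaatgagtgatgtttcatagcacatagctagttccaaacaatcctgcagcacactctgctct
Hsd3b1: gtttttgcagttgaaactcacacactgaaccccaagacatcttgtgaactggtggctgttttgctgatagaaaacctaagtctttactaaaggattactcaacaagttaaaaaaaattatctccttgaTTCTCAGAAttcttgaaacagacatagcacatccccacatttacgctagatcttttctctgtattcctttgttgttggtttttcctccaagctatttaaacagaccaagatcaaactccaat

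The shared run was 24 bases long. It stood at positions -153 to -130 from the start of Hsd3b5 and at -105 to -82 from that of Hsd3b3, and among the 32851 RefSeq windows of this length it occurred, on either strand, in 3, all of them of these 2 genes. With this offset allowed for, 199 bases of the Hsd3b5 and Hsd3b3 windows aligned at 74.8% identity. The window of Hsd3b2 shared no run longer than 8 bases with either, although its coding sequence was 95.1% identical to that of Hsd3b3 and 80.7% identical to that of Hsd3b5, and the coding sequences of Hsd3b3 and Hsd3b5 were 80.2% identical. The RefSeq start of Hsd3b5 lay 15.3 kb before the start that GENCODE gives. A promoter window was found for 8 of the 9 genes, all but Hsd17b2. Hsd3b3 and Hsd17b6 had 2 windows each, of which only the most upstream was searched. A set of 4 motifs was searched for on both strands, and overlaps between motifs were not checked. The STAT5 letters TTCNNNGAA occurred in 7.02% of all windows and in no searched window of the 8 members. The HNF4 letters CAAAGTCCA occurred in 0.384% of all windows and in none of the searched windows of the members. The receptor half-site TGTTCT occurred in 16.1% of all windows. Among the searched windows of the members it occurred in Hsd3b2 at -246 to -241 on the opposite strand. The TATA box letters TATAAA occurred in 12.4% of all windows and, among the searched windows of the members, in Akr1c6 at -164 to -159.

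Levels are given as CPM, the reads on a gene for every 1000000 reads on all genes of that library. Totals on genes were 4659656 to 7725432 reads in embryos, 9857929 to 10386931 in ES cells and 5145371 to 8499603 in fetal livers. The adult livers were shallower, with 1567583 to 4757610 reads, so that 3 reads were worth 0.631 to 1.91 CPM in adult liver. Such floors cover counting error only. Xist and Ddx3y, which are read from the inactive X and from the Y chromosome, separated male from female samples at each stage as labelled. For embryos this is no check, since their gender was itself read from such transcripts. In adult liver, Xist was 382 to 1082 CPM in females and at most 0.838 CPM in males, while Ddx3y was 129 to 189.9 CPM in males and at most 0.675 CPM in females. Of the liver libraries, 5 fetal ones held over 10 CPM of the pancreas gene Cela2a (males 11 and 12, females 14, 15 and 24), and fetal female 14 also held 1513 CPM of 4 intestine genes that were chosen after the values were seen. Markers of adrenal and gonad summed to at most 14.2 CPM and those of kidney to at most 3.01 CPM in liver libraries, and Cyp11b1 had no read in any liver. The 8 hepatocyte markers summed to 29877 to 39763 CPM in fetal and 50894 to 67333 CPM in adult livers.

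**Figure D1:**
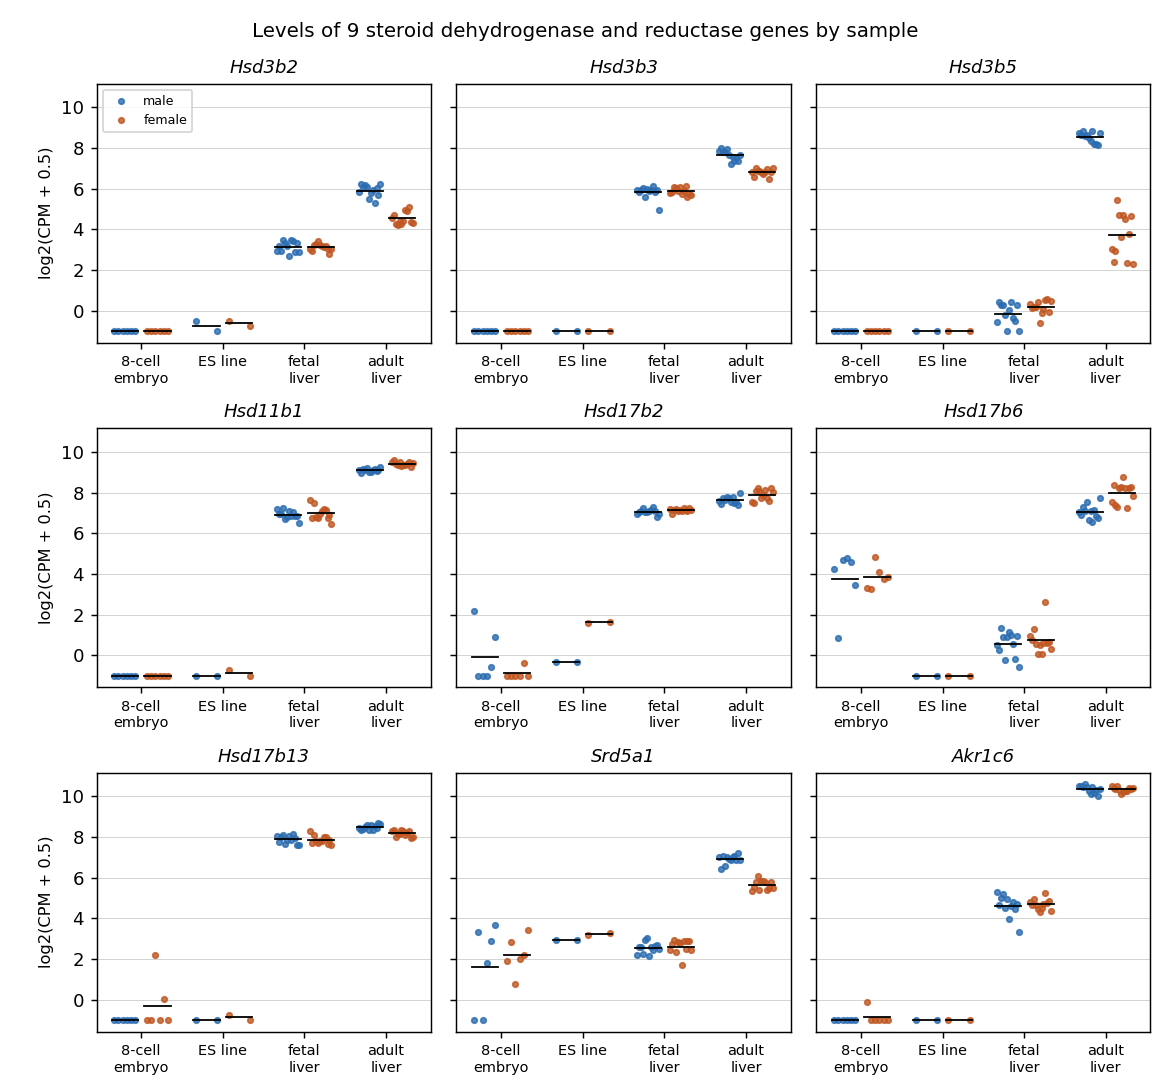
Levels of the 9 genes in each of the 64 libraries, as log2(CPM + 0.5), by stage on the horizontal axis, with male samples in blue, female samples in orange and the group mean as a black line. Hsd3b5 ran from 288 to 455 CPM in adult males and from 4.47 to 42.5 CPM in adult females, and all 9 genes were higher in adult than in fetal liver.

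In adult liver, 5 of the 9 genes differed between males and females. Hsd3b5, Hsd3b2, Hsd3b3 and Srd5a1 were higher in males and Hsd17b6 was higher in females. A gene was called where the adjusted p of edgeR's quasi-likelihood test, over all 10372 genes tested, was under 0.1 and the log2 ratio was beyond 0.5 in size. Of all genes tested 9.5% were called, 3.01% as higher in males and 6.49% as higher in females. The median log2 ratio of male over female was 0.29 over the 9 genes and -0.00 over all genes tested. Groups that did not overlap in CPM were seen for 4 of the 9 genes (Hsd3b5, Hsd3b2, Hsd3b3 and Srd5a1) and for 2.8% of all genes tested, 1.35% with males higher.

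Hsd3b5 had the widest gap of the 9. Its level was 288 CPM in the lowest adult male, 390.3 CPM at the median and 455 CPM in the highest. In adult females it was 4.47 CPM at the lowest, 12.5 CPM at the median and 42.5 CPM at the highest. Every male thus lay above every female. The log2 ratio was 4.50 (SE 0.272, adjusted p = 5.99e-12 by edgeR), a 22.6-fold difference, and it ranked 20 of 10372 genes from the most male-biased. Females differed among themselves 9.53-fold and males 1.58-fold. The highest female (replicate 16) held 126 reads of Hsd3b5 and the lowest (replicate 24) held 7 reads.

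Hsd3b2 was lower in level, and its gap was smaller. It ran from 39.5 CPM through a median of 62.9 CPM to 74.5 CPM in adult males. In adult females it ran from 18.2 CPM through 20.97 CPM to 34.2 CPM, so that the groups again stood apart. The log2 ratio was 1.37 (SE 0.111, adjusted p = 1.73e-11). Hsd3b3, its closest copy in coding sequence, ran from 151 CPM through 203 CPM to 257 CPM in males and from 89.7 CPM through 114 CPM to 131 CPM in females. Here too all males lay above all females, with a log2 ratio of 0.83 (SE 0.0817, adjusted p = 1.35e-09). The 3 genes have the same coding length (1122 bases) but exons of 3695 (Hsd3b2), 6396 (Hsd3b3) and 1549 (Hsd3b5) bases by GENCODE, and the exons that were counted may differ from these. In adult males the mean level fell from Hsd3b5 (376 ± 61.5 CPM, SD, n = 12) through Hsd3b3 (203 ± 33.9 CPM) to Hsd3b2 (60.7 ± 11.6 CPM), an order that is the same per kb of coding sequence and per kb of exons. In adult females Hsd3b3 (114 ± 12.7 CPM) stood first on both scales. Hsd3b2 (23.3 ± 5.50 CPM) came before Hsd3b5 (16.2 ± 11.96 CPM) per kb of coding sequence, with overlapping ranges of CPM, but after it per kb of exons, at 6.32 against 10.5 CPM per kb.

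Near copies share reads that were then not counted. Of the 50-base windows of the coding sequence, 35.8% of Hsd3b2, 34.3% of Hsd3b3 and 29.6% of Hsd3b5 also occurred in another gene of the annotation. None of the genes that shared windows with Hsd3b5 was Hsd3b2 or Hsd3b3, while Hsd3b2 and Hsd3b3 shared windows with each other. The levels of Hsd3b2 and Hsd3b3 are for this reason the less certain ones. Reads aligned to several places made up 42.2% to 61.1% of tallied reads in adult males and 32.7% to 43.2% in adult females. Their part in the ratios was not tested.

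Srd5a1, the type of steroid reductase that the liver uses to saturate testosterone, progesterone and glucocorticoids, was also higher in males. Its level ran from 85.6 CPM through 124 CPM to 147 CPM in adult males and from 40.01 CPM through 50.8 CPM to 67.2 CPM in adult females. The groups did not overlap, and the log2 ratio was 1.25 (SE 0.0894, adjusted p = 7.92e-13). Of the 50-base coding windows of Srd5a1, 32.4% also occurred in another gene of the annotation, Gm17108.

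Hsd17b6, which oxidises androgen metabolites and retinol, went the other way. It ran from 92.5 CPM through 133 CPM to 212 CPM in adult males. In adult females the level was 151 CPM at the lowest, 296 CPM at the median and 436 CPM at the highest. Most females lay above most males, but the groups overlapped. The log2 ratio was -0.96 (SE 0.166, adjusted p = 0.000116). Of its coding windows, 21.99% occurred in other genes, all of them named as retinol dehydrogenase genes or copies of them.

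The next 3 members, Hsd11b1, Hsd17b2 and Hsd17b13, passed the adjusted p but not the fold threshold, and their groups overlapped. Without the fold threshold 32.8% of all genes passed. Hsd11b1, which regenerates active corticosterone in the liver, ran from 501 CPM through 557 CPM to 608 CPM in males and from 606 CPM through 684 CPM to 775 CPM in females. Males and females touched only at the edge, and the log2 ratio was -0.33 (SE 0.0452, adjusted p = 1.20e-06). Hsd17b2, which oxidises oestradiol and testosterone to their less active keto forms, had a mean of 200.1 ± 24.7 CPM in males and 242 ± 43.9 CPM in females (SD, n = 12 each), with a log2 ratio of -0.28 (SE 0.0859, adjusted p = 0.0137). Hsd17b13, a protein of hepatocyte lipid droplets, had a mean of 361 ± 29.9 CPM in males and 292 ± 28.2 CPM in females. Its log2 ratio was 0.29 (SE 0.0545, adjusted p = 0.000129).

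Akr1c6, a reductase that makes testosterone from androstenedione in mouse liver, was the most abundant of the 9 and showed no difference beyond the spread. It ran from 1045 CPM through 1373 CPM to 1543 CPM in adult males and from 1096 CPM through 1318 CPM to 1479 CPM in adult females. The log2 ratio was 0.01 (SE 0.0619, adjusted p = 0.934). Akr1c6 had the highest mean level of the 9 genes in both genders per kb of coding sequence (1365 CPM per kb in males and 1345 CPM per kb in females) and per kb of exons (653 and 643 CPM per kb). The places after it depended on the length used. Hsd11b1 came next per kb of coding sequence, with 552 and 686 CPM per kb, whereas per kb of exons Hsd3b5 came next in males (243 CPM per kb) and Hsd17b6 in females (168 CPM per kb). Hsd3b2 was the lowest in males on both scales.

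Markers of other cells moved with the gender of adult livers. Of the 6 Kupffer and macrophage markers 4 were called as higher in females (Clec4f, Emr1, Vsig4 and C1qa), and the 6 summed to 273 to 509.7 CPM in males and 380.2 to 829.8 CPM in females. The 7 erythroid markers summed to 161 to 199 CPM in males and 15.7 to 45.8 CPM in females. Nearly all of this was Alas2, which was called as higher in males, while Slc4a1 reached at most 3.38 CPM in any adult liver and Hbb-b1 and Hba-a1 had no read there. All 5 liver endothelial markers were lower in males at an adjusted p under 0.1 (Lyve1 called, log2 -0.58), and they summed to 372 to 448 CPM in males and 431 to 533 CPM in females. Among the other lists Spp1 of the cholangiocyte markers was called as higher in females (-0.52), Cela1 of the pancreas markers as higher in males (0.78), and Dcn of the stellate and fibroblast markers passed the adjusted p alone (-0.37). Of the 8 hepatocyte markers none was called, while Alb (-0.37) and Apoa1 (0.29) passed the adjusted p alone, in opposite directions. The part of these shifts in the ratios of the 9 genes was not tested. In bulk tissue, fewer cells of a type and less RNA per cell cannot be told apart.

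**Figure D2:**
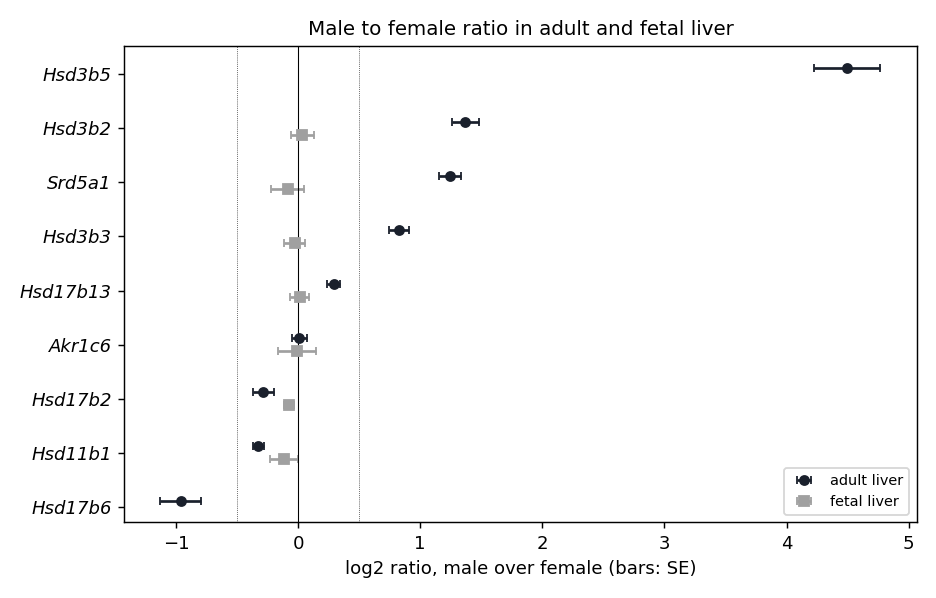
Log2 ratio of male over female in adult liver (black circles) and fetal liver (grey squares), with SE as bars and dotted lines at 0.5 and -0.5, for the 9 genes ordered by their adult ratio. Adult ratios ran from -0.96 for Hsd17b6 to 4.50 for Hsd3b5, while the 7 fetal ratios ran from -0.12 to 0.03.

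In fetal liver none of the 9 genes was called between males and females. Hsd3b5 and Hsd17b6 had too few reads to be tested there, and of the other 7 none had an unadjusted p under 0.05 by edgeR. DESeq2, which gave values for all 9, called 0 as well. Of the 12930 genes tested 4.64% were called, 3.81% as higher in males and 0.828% as higher in females, and 1.96% had groups that did not overlap, beside none of the 7. The log2 ratios of the 7 ran from -0.12 for Hsd11b1 (SE 0.112, adjusted p = 0.462) to 0.03 for Hsd3b2 (SE 0.0936, adjusted p = 0.822). Hsd3b3 was 31.0 to 69.9 CPM in fetal males and 47.9 to 70.0 CPM in fetal females (medians 60.6 and 57.9 CPM), with a log2 ratio of -0.03 (SE 0.0882, adjusted p = 0.838). Srd5a1 was 3.98 to 7.68 CPM in males and 2.74 to 7.15 CPM in females (medians 5.48 and 6.23 CPM), with a log2 ratio of -0.09 (SE 0.131, adjusted p = 0.654). Reads outside genes made up 39.9% to 49.0% of counted reads in fetal males and 34.1% to 38.1% in fetal females. The genders did not overlap in this share. With the share as a covariate, 9 genes in all were called, none of them a member. Since the share goes with gender in these livers, that fit cannot separate them.

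The male to female ratio of 4 members differed between adult and fetal liver when the difference itself was tested over all 48 livers (13.7% of 13026 genes were called, 5.18% in the direction of a higher adult ratio and 8.53% in the other). The interaction was 5.04 on the log2 scale for Hsd3b5 (SE 0.720, adjusted p = 6.31e-07), 1.38 for Hsd3b2 (SE 0.148, adjusted p = 1.46e-10), 1.38 for Srd5a1 (SE 0.158, adjusted p = 9.86e-10) and 0.90 for Hsd3b3 (SE 0.124, adjusted p = 1.25e-07), all by edgeR. All 4 were genes with higher levels in adult males. For Hsd3b5 the fetal side rested on 36 reads over 12 males and 57 reads over 12 females. Hsd17b13 passed the adjusted p alone (0.32, SE 0.0957, adjusted p = 0.00891), as did 33.6% of all genes. For Hsd17b6 the interaction was -0.48 (SE 0.489, adjusted p = 0.507), and its fetal side rested on 84 and 127 reads, so that a difference of this size was not detectable at this depth. The values of Hsd11b1 (-0.17, adjusted p = 0.314), Hsd17b2 (-0.16, adjusted p = 0.239) and Akr1c6 (0.06, adjusted p = 0.817) did not pass either.

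Neighbouring Hsd3b genes were then compared across animals within each gender, in 6 relations of log2(CPM + 0.5) over 12 livers each, all points of a panel sharing their library totals. In males, Hsd3b2 and Hsd3b3 had Pearson's r of 0.63 (permutation p = 0.0274, adjusted 0.0822) and a Spearman rho of 0.69 (permutation p = 0.0176, adjusted 0.105). Hsd3b3 and Hsd3b5 had r of 0.70 (permutation p = 0.0136, adjusted 0.0817) and rho of 0.60 (permutation p = 0.0422, adjusted 0.105). Hsd3b2 and Hsd3b5 had r of 0.57 (permutation p = 0.0565, adjusted 0.113) and rho of 0.58 (permutation p = 0.0526, adjusted 0.105). Without the 2 males farthest from the median of the gene named first, r was 0.71, 0.73 and 0.50 in the same order. Livers of males that held more of one of these genes thus tended to hold more of the others. Only 2 of the 3 relations passed an adjusted p of 0.1, and only by Pearson's r. No pair with a gene outside the cluster was tested. Akr1c6, on chromosome 13, was 1483 CPM in male 2 and 1126 CPM in male 7, which had the highest and lowest Hsd3b3 (257 and 151 CPM). Whether the relations are particular to neighbouring genes was not tested.

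In females no relation passed. Hsd3b2 and Hsd3b3 had r of -0.50 (permutation p = 0.0922, adjusted 0.138) and rho of -0.41 (permutation p = 0.183, adjusted 0.275). Hsd3b2 and Hsd3b5 had r of -0.19 (permutation p = 0.558, adjusted 0.670) and rho of -0.18 (permutation p = 0.572, adjusted 0.572). Hsd3b3 and Hsd3b5 had r of -0.12 (permutation p = 0.703, adjusted 0.703) and rho of -0.21 (permutation p = 0.516, adjusted 0.572). Without the 2 females farthest from the median of the first gene, r was -0.27, -0.50 and -0.63. Whether the relations differ between the genders was not tested.

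**Figure D3:**
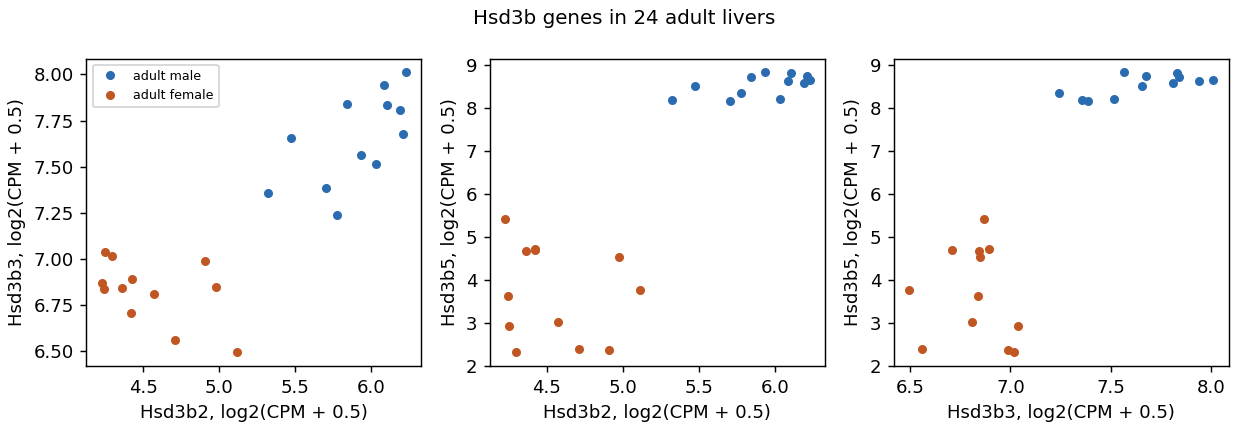
Pairs of Hsd3b genes in the 24 adult livers, as log2(CPM + 0.5) on both axes, with one point per animal (males blue, females orange). Males and females form separate clouds in each panel, and r was 0.63, 0.57 and 0.70 within males and -0.50, -0.19 and -0.12 within females, from left to right.

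For each member the gene with the most similar course over the 24 adult livers was sought among 10363 others, by the root mean square difference of log2(CPM + 0.5) after each gene was centred on its own mean. Hsd3b5 was nearest to Mup21, a major urinary protein gene, at a difference of 0.746 beside its own spread of 2.53. Mup21 was 317 CPM in males and 12.3 CPM in females on average. Hsd3b2 was nearest to Rassf3 (0.278 beside 0.743) and Hsd3b3 to Zkscan3, a zinc finger gene (0.163 beside 0.459). Srd5a1 was nearest to Hao1, a liver hydroxyacid oxidase, at 0.220 beside 0.665. Hsd17b6 was nearest to Dll1, a Notch ligand with levels under 10 CPM, at 0.352 beside 0.618. These 5 neighbours were themselves called between the genders, each in the direction of its member. The search ran over livers of both genders. A gender gap shared with the member, or shared lack of one, thus follows largely from the choice and is no separate result. The remaining nearest genes were Rnf13 for Hsd11b1 (0.0918 beside 0.180), Scly for Hsd17b2 (0.157 beside 0.252), Cdv3 for Hsd17b13 (0.116 beside 0.197) and Nsmaf for Akr1c6 (0.106 beside 0.147), of which none was called.

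All 9 genes were higher in adult than in fetal liver. Over 13026 genes tested 67.1% were called, 31.7% as higher in adults and 35.4% as lower, and the median log2 ratio of adult over fetal was 2.86 over the 9 genes and -0.05 over all genes tested. Scaling by library totals alone moved the median of all genes by -0.56 and gave 2403 genes higher and 7026 lower in adults, in place of 4132 and 4610. Under that scaling 8 of the 9 were called, all but Hsd17b13. Groups did not overlap for 8 of the 9, again all but Hsd17b13, with the adults higher, as for 10.3% of all genes tested.

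Hsd17b6 and Hsd3b5 rose most. Hsd17b6 was 0.172 to 2.00 CPM in fetal males and 0.548 to 5.53 CPM in fetal females, where 1 liver (replicate 21, 47 reads) stood above the others. Against the adult levels given above, the log2 ratio was 7.76 (SE 0.174, adjusted p = 6.86e-38 by edgeR). Hsd3b5 was at most 0.855 CPM in fetal males, and no fetal female held more than 8 reads, while 2 fetal males had no read. Its log2 ratio was 7.64 over both genders (SE 0.227, adjusted p = 1.03e-32), 10.12 in males alone and 5.09 in females alone. Akr1c6 ran from 9.46 CPM through 25.1 CPM to 39.0 CPM in fetal males and from 19.3 CPM through 25.3 CPM to 37.4 CPM in fetal females, which was far below every adult. Its log2 ratio was 6.25 (SE 0.0979, adjusted p = 1.03e-46). For Srd5a1 the log2 ratio was 4.37 (SE 0.0769, adjusted p = 8.51e-48), 5.03 in males alone and 3.65 in females alone.

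The other members rose less. Hsd11b1 ran from 88.9 CPM through 117 CPM to 151 CPM in fetal males and from 88.2 CPM through 120.2 CPM to 196 CPM in fetal females. Its log2 ratio of adult over fetal was 2.86 (SE 0.0623, adjusted p = 9.84e-43). Hsd3b2 was 5.89 to 10.8 CPM in fetal males and 6.47 to 10.2 CPM in fetal females, with log2 ratios of 2.72 (SE 0.0746) over both genders, 3.38 in males and 2.01 in females. Hsd3b3 had a log2 ratio of 1.95 (SE 0.0631) over both genders, 2.37 in males and 1.47 in females. Hsd17b2 was 111 to 156 CPM in fetal males and 124 to 153 CPM in fetal females, and its log2 ratio was 1.25 (SE 0.0509). Hsd17b13 changed least. It ran from 192 CPM through 242 CPM to 281 CPM in fetal males and from 196 CPM through 225 CPM to 309.7 CPM in fetal females, overlapping the adult range, with a log2 ratio of 1.02 (SE 0.0483, adjusted p = 4.06e-27). Fetal liver is also a blood-forming organ, and the erythroid markers summed to 4027 to 5879 CPM there. The part of the cell make-up in these ratios was not tested.

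The make-up of reads on the Hsd3b cluster, not scaled by length, differed between stages and, in adults, between genders. Hsd3b1, known from steroid synthesis in gonads and adrenal glands, took a mean of 75.8% ± 3.54 (SD, n = 12) of the reads on Hsd3b1, Hsd3b2, Hsd3b3, Hsd3b5 and Hsd3b6 in fetal males and 76.6% ± 2.78 in fetal females. Hsd3b3 took 19.6% ± 2.63 and 19.2% ± 2.39, and Hsd3b5 only 0.137% ± 0.0912 and 0.225% ± 0.112. In adult males Hsd3b5 took 58.7% ± 3.03, Hsd3b3 31.8% ± 2.61 and Hsd3b2 9.51% ± 1.36. In adult females Hsd3b3 took 74.1% ± 6.51, Hsd3b2 15.4% ± 4.35 and Hsd3b5 10.2% ± 6.82. The 5 genes summed to 303 ± 74.0 CPM in fetal males, 313 ± 66.0 CPM in fetal females, 639.7 ± 95.5 CPM in adult males and 154 ± 14.5 CPM in adult females. Adult females thus held less of the cluster than either fetal group on average, and the lowest adult male (495 CPM) lay above the highest adult female (177 CPM).

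**Figure D4:**
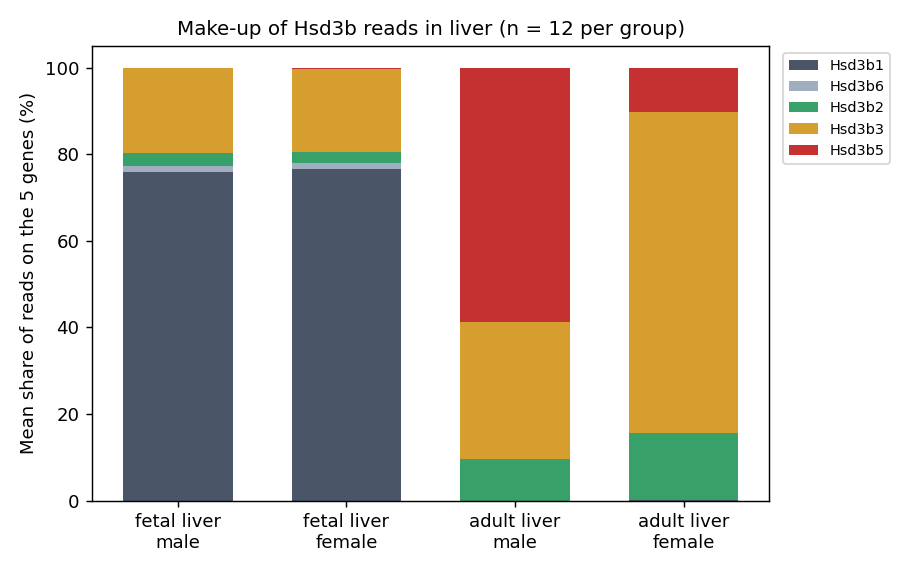
Mean share of reads on 5 Hsd3b genes, in percent, in fetal and adult livers by gender (n = 12 libraries per bar). Hsd3b1 made up 75.8% and 76.6% of fetal bars, Hsd3b5 made up 58.7% of the adult male bar, and Hsd3b3 made up 74.1% of the adult female bar.

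Hsd3b1 was 86.3 to 303 CPM in fetal males and 158 to 339 CPM in fetal females. In the 24 adult livers it had 11 reads in all, 1 in males and 10 in females, and its log2 ratio of adult over fetal was -10.27 (SE 0.254, adjusted p = 1.83e-36). Hsd3b6 had a mean of 4.16 CPM in fetal liver and no read in any adult liver, which made it at least 92.0-fold lower in adults, counted against 3 reads over all adult libraries. These copies fell while the 3 members of the cluster rose. The adrenal and gonad markers, which stand for the tissues best known to use Hsd3b1, summed to 1.56 to 5.88 CPM in fetal livers.

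Other genes of the pathway were taken from 2 lists. Of 28 related dehydrogenases and reductases, 16 were tested in adult liver between genders and 3 were called, all as higher in females: Akr1d1, Rdh9 and Rdh16. Of all genes tested 9.5% were called, 6.49% as higher in females. Akr1d1, the reductase that gives bile acids and steroids a bent ring, was 263 ± 42.5 CPM in males and 456 ± 93.3 CPM in females (SD, n = 12 each), with a log2 ratio of -0.80 (SE 0.10003, adjusted p = 3.81e-07). Rdh9 and Rdh16, retinol dehydrogenases in the cluster that holds Hsd17b6, had log2 ratios of -0.73 (SE 0.151, adjusted p = 0.000723) and -0.66 (SE 0.137, adjusted p = 0.000759), beside -0.96 for Hsd17b6. The 3 genes went the same way in adult liver, and they share sequence. The median log2 ratio over the 16 was 0.12.

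Of 11 genes of steroid synthesis and cofactor supply in the files, 5 were tested and 3 called, beside 9.5% of all genes tested. Cyp17a1, the hydroxylase and lyase of androgen synthesis, was 1.12 to 8.27 CPM in adult males (median 3.35 CPM) and 59.0 to 188 CPM in adult females (median 113 CPM). All females lay above all males, and the log2 ratio was -4.84 (SE 0.283, adjusted p = 2.28e-12), about as far from 0 as that of Hsd3b5 and in the other direction. Por, which passes electrons to cytochrome P450 enzymes, had a log2 ratio of -0.60 (SE 0.144, adjusted p = 0.00302). H6pd, which supplies Hsd11b1 with NADPH inside the endoplasmic reticulum, went the other way. It was 563 ± 72.6 CPM in males against 392 ± 39.4 CPM in females, a log2 ratio of 0.51 (SE 0.0700, adjusted p = 1.01e-06). Hsd11b1 itself was lower in males, as given above. The median over the 5 was 0.13.

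In fetal liver no gene of either list was called between genders, of 16 and 6 tested, beside 4.64% of all genes tested. Of these list genes 7 and 1 had an unadjusted p under 0.05 and passed the adjusted p alone, as did 37.2% of all genes by edgeR. The interaction was called for 8 of 19 tested genes of the first list and 4 of 7 of the second, beside 13.7% of all genes tested. Among the genes called in adults it was -4.73 for Cyp17a1 (SE 0.356, adjusted p = 9.56e-15), -0.72 for Akr1d1 (adjusted p = 1.89e-05), -0.66 for Por (adjusted p = 0.00392) and 0.58 for H6pd (adjusted p = 2.04e-05). For Rdh9 (-0.61, adjusted p = 0.323) and Rdh16 (-0.49, adjusted p = 0.640) it did not pass, and both were under 2 CPM in each fetal liver.

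Between stages, 18 of 19 tested genes of the first list were called, 16 as higher and 2 as lower in adults (Hsd3b1 and Hsd3b6), and 6 of 7 of the second list, all as higher. Of all genes tested 67.1% were called, 31.7% as higher in adults. Medians of the log2 ratio were 1.78 and 1.43 over the 2 lists and -0.05 over all genes tested. Of the 8 called genes with the smallest adjusted p, Rdh16 had the highest ratio (9.49, SE 0.154), followed by Rdh9 (7.68, SE 0.139). Akr1c20, next to Akr1c6 on chromosome 13, stood at 4.63 (SE 0.0901), and Akr1c14, a reductase of keto steroids in the same cluster, at 3.08 (SE 0.0646). Hsd3b7, which acts in bile acid synthesis, had a ratio of 2.83 (SE 0.0445) and Hsd17b4, a peroxisomal enzyme of fatty acid oxidation, one of 2.76 (SE 0.0345). H2-Ke6, the symbol of the files for Hsd17b8, had a ratio of 1.78 (SE 0.0511), and Hsd3b1 was the 1 gene of the 8 that fell.

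**Figure D5:**
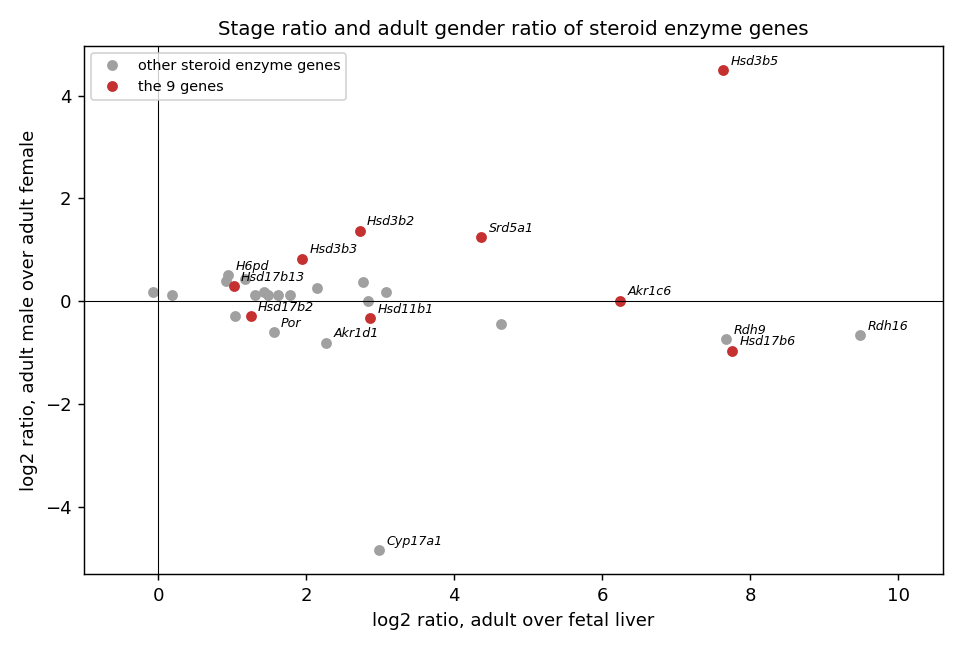
Log2 ratio of adult over fetal liver (horizontal) against log2 ratio of adult male over adult female (vertical) for the 9 genes (red) and the other steroid enzyme genes tested in both comparisons (grey), with names for the 9 and for others beyond 0.5 on the vertical axis. All 9 lie to the right of 0, Hsd3b5 stands at the top with 4.50 and Cyp17a1 at the bottom with -4.84.

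Before the liver, few of the genes were read. In 8-cell embryos Hsd3b2, Hsd3b3, Hsd3b5 and Hsd11b1 had no read in any of the 12 libraries, where 3 reads would have been worth 0.388 to 0.644 CPM. In the 4 ES lines Hsd3b3, Hsd3b5, Hsd17b6 and Akr1c6 had no read, and Hsd3b2, Hsd11b1 and Hsd17b13 had at most 2 reads in a line. Hsd17b6 was the most abundant member in embryos. It ran from 1.30 CPM through 20.9 CPM to 26.9 CPM in males and from 9.06 CPM through 13.4 CPM to 28.1 CPM in females. All female embryos lay above the highest fetal liver, though under another protocol. The mean log2(CPM + 0.5) of males was lower than that of females by 0.08 (exact permutation test over all splits of 6 against 6, two-sided, p = 0.950, adjusted over 2 genes 0.950). Srd5a1 ran from 0 through 4.89 CPM to 12.2 CPM in male embryos and from 1.20 CPM through 3.84 CPM to 10.3 CPM in female embryos, with a difference of -0.60 (exact permutation p = 0.513, adjusted 0.950). Neither gene differed beyond the spread between embryos.

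In ES lines Srd5a1 was 7.03 and 7.19 CPM in males and 8.50 and 9.23 CPM in females. Hsd17b2 was 0.289 and 0.292 CPM in the male lines, 3 reads each, and 25 and 26 reads in the female lines, which had a mean of 2.57 CPM. In an edgeR test of 2 against 2 lines, chosen after the values were seen, Hsd17b2 was called (log2 ratio of male over female -3.13, SE 0.449, adjusted p = 0.0254) and Srd5a1 was not (-0.35, SE 0.205, adjusted p = 0.348). Of the 12678 genes tested 9.5% were called. The call of Hsd17b2 was lost when either female line was left out (adjusted p = 0.306 without replicate 3 and 0.367 without replicate 4).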

How the data were processed

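RNA was sequenced from 64 libraries. The authors aligned reads to mm10 with TopHat2 2.0.4, Bowtie2 2.1.0 and SAMtools 0.1.18, removed duplicates with Picard and deposited raw counts per gene from HTSeq, with a gene annotation from the TopHat website. The strand setting is not given in the sources used here. Reads that align to several places went to no gene, which affects near copies. The 5 tally rows of each file were left out of library totals.

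Counts were tested with edgeR 4.0.16 (quasi-likelihood test, TMM scaling, filterByExpr) in R 4.3.3, with Benjamini-Hochberg adjustment over all genes tested. DESeq2 1.42.0, other scalings and filters served as alternatives. Log2 ratios of the tests carry TMM scaling, while CPM use library totals. Sequences were read from RefSeq and GENCODE. Correlations and embryo differences used permutation with scipy 1.17.1 under Python 3.11.15, with 0.5 CPM added. The steps were tested on simulated data. No 2 libraries held identical counts. The labels name no batch, litter or sequencing pool, so p-values measure the spread between libraries.

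The genes named were the 9 members, list genes called between adult genders, the 8 called list genes with the smallest adjusted p between stages, and the gene nearest in course to each member. The intestine genes, the Hsd3b shares and the comparison of upstream sequences were chosen after values were seen. The members and lists were chosen with earlier results of these data known. Same-numbered fetal and adult livers share only a number.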

Additional observations from a re-analysis of the deposited data

Results flagged for a closer look

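Among the 12 embryos, 1 male and 1 female library stood apart from the other 5 of their group for 1 gene each, out of 6 groups checked in this way. The rule flags about 1 in 20 groups of normally distributed values. Here 3 male embryos had no read of Hsd17b2 and 4 female embryos had none of Hsd17b13, so this rate cannot be taken to hold. Hsd17b2 was 3.94 CPM (21 reads) in male embryo 1, where the next male held 1.35 CPM. Hsd17b13 was 4.12 CPM (24 reads) in female embryo 9, where the next female held 0.535 CPM.

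The male to female ratio differed between adult and fetal liver, by edgeR's test of the difference itself, for 10 of the genes named. Of all 13026 genes tested 13.7% were called. Part of the named genes had been chosen because they were called between adult genders, which favours such differences. The difference in log2 ratio, adult over fetal, was 5.04 for Hsd3b5, 1.38 for Hsd3b2, 1.38 for Srd5a1, 0.90 for Hsd3b3, 0.58 for H6pd and 0.58 for Hsd17b4. It was -4.73 for Cyp17a1, -0.72 for Akr1d1, -0.66 for Por and -0.61 for Akr1c20.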

How the results depend on the processing

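No called value changed direction under any alternative. The same 5 members were called between adult genders under every alternative but the one without a fold threshold, which called 8. Genes called between adult genders rose from 985 to 1518 without an expression filter and to 3399 without a fold threshold. Between fetal genders they rose from 600 to 1057 and 4807 in the same order, and fell to 9 with the share of reads outside genes as a covariate. That share did not overlap between fetal genders, so the fetal fit cannot separate it from gender. For the interaction, 1786 genes became 4382 without a fold threshold and 1179 with that covariate, and the 4 called members stayed called. Between stages, library totals alone ended the call of Hsd17b13 (log2 0.46). The correlation of Hsd3b2 and Hsd3b5 in males was 0.60 with TMM-scaled CPM and passed (permutation, adjusted p = 0.0872). Of 24 pairs of same-numbered fetal and adult livers, none correlated over 0.1 (-0.12 to 0.07). With the number as a replicate block 1662 genes were called for the interaction and 8731 between stages, and no member's call changed. Leaving out the 5 fetal livers over 10 CPM of Cela2a, chosen after seeing the data, changed no member's call. In ES cells 1205 genes were called, and 0 to 3070 with 1 line left out, where the lone line is assumed to vary like the other group. Members called there were 1, and 0 to 1 with 1 line left out. In fetal liver the low reads of Hsd3b5 and Hsd17b6 limit what their ratios can show.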
